A study of Mus musculus with 20 samples.

Results

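The SoxB1 genes are Sox1, Sox2 and Sox3, 3 of the 54446 gene IDs in the expression tables of 15 bulk RNA-seq libraries of mouse structures, chosen by gene name. Gastruloids are stem cell aggregates that lengthen and lay down a trunk-like body axis in culture, and trunk-like structures (TLS) arise when such aggregates are embedded in Matrigel, an extract of basement membrane. All groups came from the mouse embryonic stem cell line F1G4 with the double reporter T::H2B-mCherry/Sox2::H2B-Venus, and all aggregates received a pulse of 3 µM CHIR99021, an activator of WNT signalling, starting at 48 h. The group called 96h was collected at 96 h, before any Matrigel, with 10 structures pooled per library. The other groups were collected at 120 h with 6 structures pooled per library. Gastruloid was grown by the Beccari protocol without Matrigel, TLSMG in Matrigel, TLSMGC in Matrigel with further CHIR, and TLSMGCL in Matrigel with CHIR and LDN, an inhibitor of BMP receptors. The labels give no dose for CHIR or LDN in the last 2 groups and do not say how the reporters were built or whether the line is 1 clone.

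SoxB1 proteins are transcription factors with an HMG-box DNA-binding domain, and they activate genes together with partner factors, among them POU proteins. In the mouse embryo Sox2 marks pluripotent cells, and Sox2 and Sox3 persist in the neural plate and neural tube, where Sox1 appears as cells commit to a neural fate. Sox2 also marks the bipotent axial progenitors of the tail end, which express it together with T (Brachyury) and give rise to spinal cord and presomitic mesoderm. Sox2 is further known from germ cells and foregut endoderm, so a Sox2 level in whole structures need not be neural.

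Each group had 3 libraries, which the labels call biological replicates. TPM is an abundance per gene length, scaled so that every table sums to 1000000. Relative depth, given by the ratio of coverage to FPKM, ranged from 3.12 to 6.84 (a ratio of 2.19), and 13688 to 14494 genes per library reached 1 TPM. Only structures with an asymmetric pole had been pooled. In such bulk samples fewer cells of a type and less RNA per cell cannot be told apart.

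All members are genes of 1 exon and 1 transcript in the GENCODE M21 annotation (build GRCm38). It places them as the deposited tables do, and the lengths and GC contents given here come from it. Sox1 (ENSMUSG00000096014.1) lies on chromosome 8 from 12395295 to 12400126 on the plus strand and is 4832 bases long with a GC content of 56.9%. Sox2 (ENSMUSG00000074637.7) lies on chromosome 3 from 34650405 to 34652461 on the plus strand, 2057 bases with 50.5% GC. Sox3 (ENSMUSG00000045179.9) lies on chromosome X from 60891366 to 60893430 on the minus strand, 2065 bases with 66.4% GC. The GC content of Sox3 is at the 99.4 percentile of all annotated genes, that of Sox1 at 91.5 and that of Sox2 at 68.5.

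The sequence upstream of the RefSeq start of Sox2 is shown because Sox2 is the member with a reporter, and because it holds matches to the letters bound by POU and HMG-box factors, whose own levels are described below. RefSeq's promoter table (GRCm38.p6) held Sox2 and Sox1. The 250 bases before the RefSeq start of Sox2 are chr3:34649745-34649994 on the plus strand, with motif matches in capitals. The deposited tables start Sox2 farther downstream, at position 34650405, so the window does not adjoin the gene model that was quantified.
Sox2: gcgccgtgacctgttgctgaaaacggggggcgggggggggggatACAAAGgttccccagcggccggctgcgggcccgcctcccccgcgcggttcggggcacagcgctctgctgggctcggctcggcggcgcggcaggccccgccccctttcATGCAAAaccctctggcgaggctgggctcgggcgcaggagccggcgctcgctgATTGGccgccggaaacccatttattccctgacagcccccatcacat
From the 5′ end, the capitals mark ACAAAG, the core bound by HMG-box proteins such as SOX and TCF factors, ATGCAAA, the core of the POU octamer, and ATTGG, the reverse complement of the CCAAT box. Their first bases lie 206, 99 and 46 bases before the start, and the matches do not overlap.
Searched on both strands in the same 250 bases of 32851 RefSeq promoters, ATGCAAA was found in 4.12%, ACAAAG in 16.5% and CCAAT in 33.8%. ATCAAAG, a TCF and LEF site found in 3.21%, was in neither window. In the window of Sox1 (chr8:12395269-12395518) only CCAAT was found, with its first base 237 bases before the RefSeq start. Most of that window lies inside the Sox1 gene as placed in the deposited tables. A match is a run of letters and not a measured binding site.

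Sox1, an early marker of neural commitment, was near 1 TPM at 96 h and above 10 TPM at 120 h unless CHIR was added. Its TPM was 0.744, 0.757 and 1.77 at 96h, 32.1, 27.4 and 20.7 in Gastruloid, and 13.6, 21.5 and 18.4 in TLSMG, in the order of replicates 1 to 3. In TLSMGC it was 1.78, 1.73 and 2.79, and in TLSMGCL 2.19, 1.91 and 1.85. Every library of Gastruloid and TLSMG lay above every library of the other groups. TLSMG replicate 2 exceeded Gastruloid replicate 3, so these groups overlapped. The low values rested on few reads, with a mean read depth over the gene of 1.55 to 3.45 at 96h and 2.67 to 5.91 in the groups with CHIR.

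Sox2, the pluripotency and neural factor, was present in every library. Its TPM was 17.6, 27.4 and 32.1 at 96h, 99.0, 101 and 90.3 in Gastruloid, and 67.4, 90.3 and 84.1 in TLSMG. In TLSMGC it was 24.6, 28.4 and 27.8, and in TLSMGCL 33.4, 33.2 and 29.2. Gastruloid and TLSMG were again above all other libraries, and the groups with CHIR lay within or just above the range of 96h. The 96h group was the most spread relative to its mean, with replicate 1 the lowest library of all.

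Sox3, the X-linked member, covered the widest range in TPM. Its TPM was 10.6, 15.9 and 20.3 at 96h, 191, 174 and 149 in Gastruloid, and 61.0, 86.0 and 75.6 in TLSMG. In TLSMGC it was 11.5, 13.7 and 18.8, and in TLSMGCL 19.8, 25.7 and 18.3. All Gastruloid libraries lay above all TLSMG libraries, and all of these above the rest. The 3 members each differed among the 5 groups in limma's moderated F test, with Benjamini-Hochberg adjusted p of 1.16e-08 for Sox1, 4.76e-07 for Sox2 and 3.80e-08 for Sox3. Of all 14290 genes tested, 73.5% passed the same test.

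**Figure D1:**
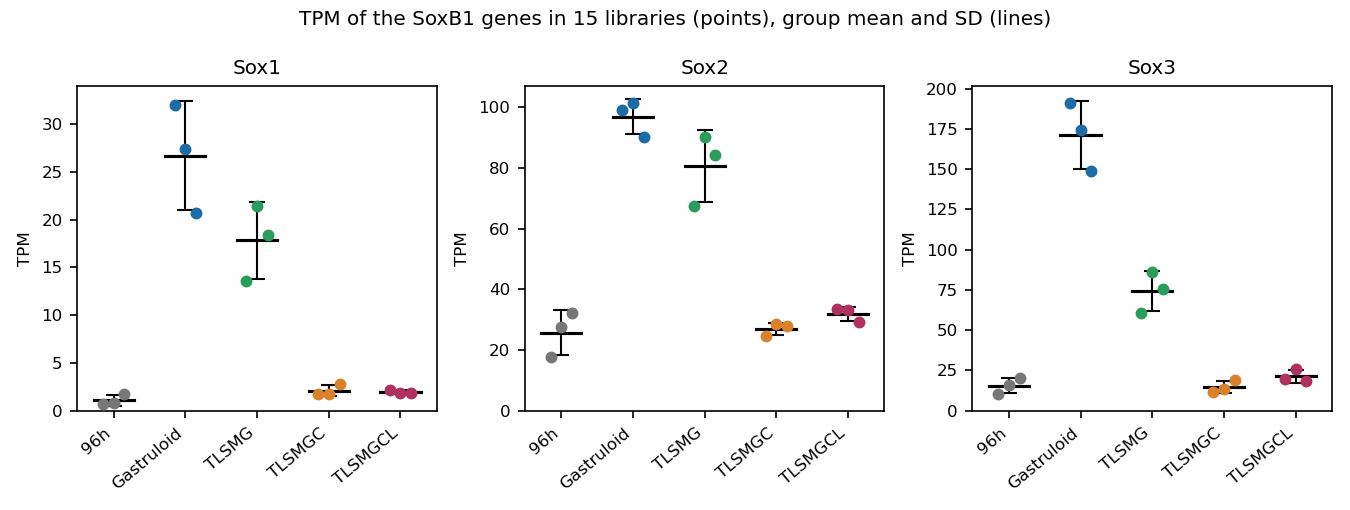
TPM (y axis, linear, 1 panel per gene) of Sox1, Sox2 and Sox3 in the 3 libraries of each group (points, x axis), with the group mean (wide line) and SD (error bar). Gastruloid and TLSMG stand above the other groups for each gene, and for Sox3 the Gastruloid libraries (149 to 191 TPM) lie above the TLSMG libraries (61.0 to 86.0 TPM).

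From 96 h to 120 h without added CHIR, all members rose, whether the structures were in Matrigel or not. Without Matrigel, Sox1 went from 1.09 ± 0.591 to 26.7 ± 5.69 TPM (SD, n = 3 in each group here and below), a ratio of 24.5. Sox2 went from 25.7 ± 7.39 to 96.9 ± 5.84 TPM, a ratio of 3.77, and Sox3 from 15.6 ± 4.86 to 171 ± 21.3 TPM. Sox1 and Sox3 started from lower levels than Sox2, and no library of 96h overlapped Gastruloid for any member. How many of all genes also lacked overlap was not computed.

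In limma, the log2 differences of TPM + 1 between Gastruloid and 96h were 3.74 (SE 0.22, adjusted p 1.44e-08) for Sox1, 1.91 (SE 0.17, adjusted p 9.55e-07) for Sox2 and 3.42 (SE 0.22, adjusted p 4.47e-08) for Sox3. In this comparison 20.8% of all genes tested were called higher and 20.5% lower, or 27.5% and 16.6% with FPKM in place of TPM. By size, 16 genes (0.112% of those tested, Sox1 included) rose at least as far as Sox1. The same count was 30 genes (0.21%) for Sox3 and 149 genes (1.04%) for Sox2.

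In TLSMG the means were 17.8 ± 3.99 TPM for Sox1, 80.6 ± 11.8 for Sox2 and 74.2 ± 12.6 for Sox3. Against 96h these gave log2 differences of 3.18 (adjusted p 6.74e-08), 1.64 (adjusted p 3.65e-06) and 2.21 (adjusted p 2.83e-06). Here 33.5% of all genes were called higher and 12.5% lower, or 22.4% and 23.1% after median-of-ratios scaling. The median gene was 0.14 higher on the log2 scale in TLSMG than at 96h, and each member exceeded that shift by more than 1 log2 unit. Gastruloid and TLSMG were compared with the same 96h libraries, so their agreement is not independent.

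Matrigel at 120 h was tested by TLSMG against Gastruloid, and among the members only Sox3 passed. Sox3 fell from 171 ± 21.3 to 74.2 ± 12.6 TPM, 2.31 times lower, with a log2 difference of -1.20 (SE 0.22, 95% confidence interval -1.68 to -0.73, adjusted p 0.00113). Sox1 had a difference of -0.56 (interval -1.02 to -0.09, adjusted p 0.0543) and Sox2 of -0.27 (interval -0.63 to 0.09, adjusted p 0.218). All TLSMG libraries lay at or below the Gastruloid range for Sox2 as well.

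Among all genes tested, 7.87% were called lower and 31.5% higher in TLSMG than in Gastruloid, or 18.2% and 19.3% after median-of-ratios scaling and 18.9% and 19% with FPKM. The difference of Sox3 was among the 59 farthest falls (0.413% of genes tested). The median gene was 0.13 higher in TLSMG, which is opposite in sign to the differences of the members. Across 14283 genes the log2 difference in this comparison correlated with GC content at r = -0.41, and Sox3 and Sox1 are rich in GC. After a correction for GC content and length, chosen after seeing the data, Sox3 remained lower by -1.11 (adjusted p 0.00395), and Sox1 passed at -0.70 (adjusted p 0.0336). Sox1 also passed with FPKM (-0.69, adjusted p 0.0100) and with median-of-ratios scaling (-0.72, adjusted p 0.0202). Leaving out 1 library moved it between -0.72 and -0.39, and it passed in 4 of 15 such fits, among them those without Gastruloid replicate 3 (-0.72) or TLSMG replicate 2 (-0.70).

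Added CHIR in Matrigel was tested by TLSMGC against TLSMG, and all members fell. Sox1 went from 17.8 ± 3.99 to 2.10 ± 0.595 TPM, 8.50 times lower. Sox2 went from 80.6 ± 11.8 to 26.9 ± 2.06 TPM, 2.99 times lower, and Sox3 from 74.2 ± 12.6 to 14.6 ± 3.75 TPM, 5.07 times lower. Every TLSMGC library lay below every TLSMG library for each member, and the share of all genes that separate in this way was not computed.

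The log2 differences were -2.60 (SE 0.22, adjusted p 9.02e-07) for Sox1, -1.54 (SE 0.17, adjusted p 1.02e-05) for Sox2 and -2.28 (SE 0.22, adjusted p 3.56e-06) for Sox3. Among all genes, 30.5% were called lower and 10.4% higher, or 18.8% and 18.3% after median-of-ratios scaling and 22.2% and 15.4% with FPKM. The median gene was lower by -0.16. At least as far as Sox1 fell 47 genes (0.329%, Sox1 included), as Sox3 76 genes (0.532%) and as Sox2 255 genes (1.78%).

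With CHIR and LDN together (TLSMGCL) the means were 1.99 ± 0.183 TPM for Sox1, 31.9 ± 2.39 for Sox2 and 21.3 ± 3.92 for Sox3. Against TLSMG the log2 differences were -2.64 (adjusted p 6.64e-07), -1.30 (adjusted p 3.76e-05) and -1.75 (adjusted p 2.95e-05), with 35.6% of all genes called lower and 9.31% higher, or 20% and 19.1% after median-of-ratios scaling and 24.9% and 15.1% with FPKM. The median gene was lower by -0.18. Against Gastruloid all members were lower too, by -3.16, -1.81 and -3.48 in TLSMGC and by -3.20, -1.57 and -2.96 in TLSMGCL for Sox1, Sox2 and Sox3. The share of all genes called lower was 21.2% in TLSMGC against Gastruloid and 21.1% in TLSMGCL against Gastruloid. These comparisons share their control libraries.

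LDN on top of CHIR was tested by TLSMGCL against TLSMGC, and no member passed. Sox3 had the largest difference of the members, 0.52 higher with LDN (interval 0.05 to 1.00, adjusted p 0.325), and its groups overlapped, since TLSMGC replicate 3 (18.8 TPM) exceeded TLSMGCL replicate 3 (18.3 TPM). Sox2 was 0.24 higher (interval -0.12 to 0.60, adjusted p 0.608), with all TLSMGCL libraries above all TLSMGC libraries. Sox1 differed by -0.04 (interval -0.50 to 0.43, adjusted p 0.963). Few genes of any kind passed in this comparison, 1.18% of those tested.

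The groups with CHIR were also set against 96h, the earlier time point. In TLSMGC, Sox2 differed from 96h by 0.10 (interval -0.26 to 0.46, adjusted p 0.665) and Sox3 by -0.06 (interval -0.54 to 0.41, adjusted p 0.842). Sox1 was called higher, by 0.59 (interval 0.12 to 1.05, adjusted p 0.0438), at 2.10 against 1.09 TPM, although TLSMGC replicate 2 (1.73 TPM) lay below 96h replicate 3 (1.77 TPM). In this comparison 40.7% of all genes passed and 20.6% were called higher. The Sox1 call was lost in 14 of 26 alternatives, among them leaving out any 1 of the TLSMGC libraries, whose values ran from 0.43 to 0.67.

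In TLSMGCL against 96h no member passed, while 39.5% of all genes did. The differences were 0.55 for Sox1 (interval 0.08 to 1.01, adjusted p 0.0595), 0.34 for Sox2 (interval -0.02 to 0.70, adjusted p 0.125) and 0.46 for Sox3 (interval -0.01 to 0.93, adjusted p 0.115). Without 96h replicate 3, the highest 96h library for every member, each of them passed, at 0.77, 0.51 and 0.66. Sox1 also passed there with a pseudocount of 0.1 (0.91) or 0.5 (0.70), and Sox1 and Sox3 passed with a correction for GC content and length (0.73 and 0.67). Intervals that include 0 do not show that the levels were equal.

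**Figure D2:**
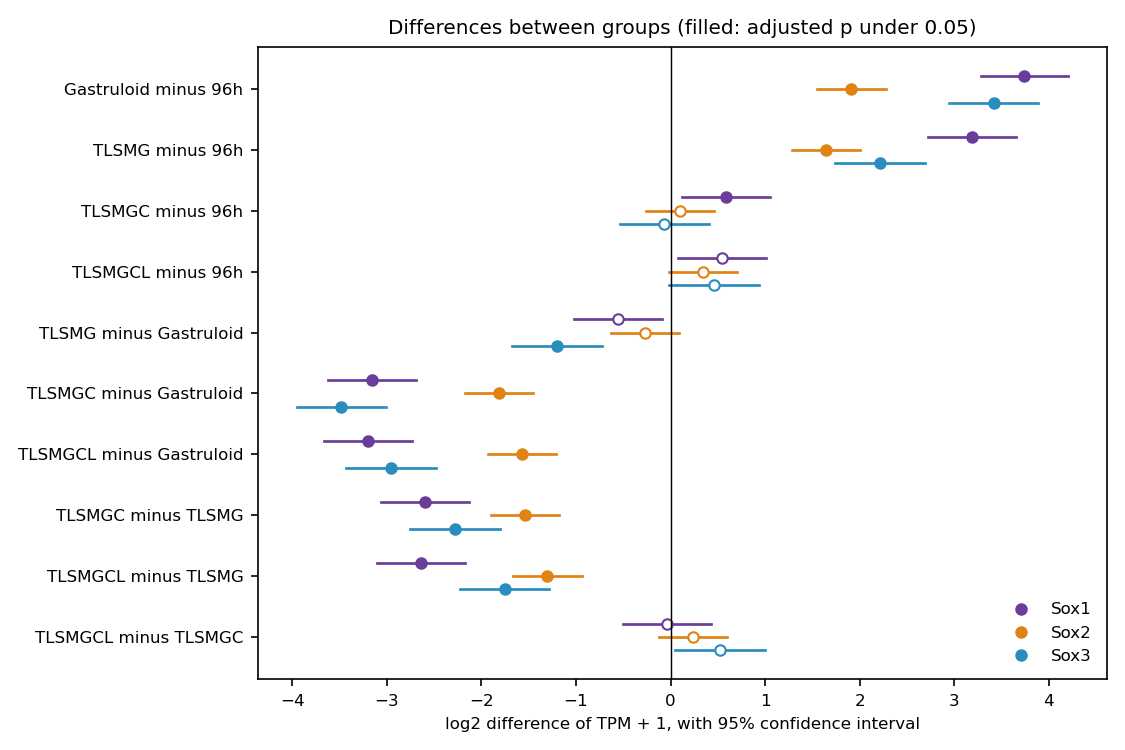
Log2 difference of TPM + 1 (x axis) with its 95% confidence interval (line) for Sox1, Sox2 and Sox3 in each of the 10 comparisons between groups (y axis), filled where the limma adjusted p is under 0.05. The members lie together in sign in the comparisons of Gastruloid or TLSMG with the other groups, and only the Sox3 point (-1.20) is filled in TLSMG minus Gastruloid.

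Over the 30 tests of members, 7 were called higher, 13 lower and 10 were not called. Of all genes, 1.18% were called in TLSMGCL against TLSMGC. In the other comparisons the share ran from 36.1% (TLSMGCL against Gastruloid) to 46% (TLSMG against 96h). The 30 tests reuse the same 15 libraries, so they are not independent. In descending order the mean TPM of Sox1 ran Gastruloid, TLSMG, TLSMGC, TLSMGCL and 96h, and of these neighbours only TLSMG and TLSMGC differed by limma. For Sox2 the order was Gastruloid, TLSMG, TLSMGCL, TLSMGC and 96h, and only TLSMG and TLSMGCL differed. For Sox3 it was Gastruloid, TLSMG, TLSMGCL, 96h and TLSMGC, with differences between Gastruloid and TLSMG and between TLSMG and TLSMGCL. Ranked among the 14290 genes tested by mean TPM, Sox3 moved from rank 7394 at 96h to rank 928 in Gastruloid, Sox2 from 5624 to 1711 and Sox1 from 13577 to 5392.

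The make-up of the summed SoxB1 level changed along with its size. The summed TPM of the 3 genes was 42.4 ± 12.7 at 96h, 295 ± 31.9 in Gastruloid, 173 ± 28.3 in TLSMG, 43.7 ± 5.77 in TLSMGC and 55.2 ± 5.74 in TLSMGCL. Sox2 made up 60.8% ± 1.49 of it at 96h, 33.0% ± 2.05 in Gastruloid, 46.8% ± 0.987 in TLSMG, 62.0% ± 4.97 in TLSMGC and 58.0% ± 3.03 in TLSMGCL. Sox2 held the largest share in every library except those of Gastruloid.

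Sox3 made up 36.6% ± 0.720 at 96h and 58.0% ± 1.11 in Gastruloid, where it was the most abundant member in every library. In TLSMG its share was 42.9% ± 0.519, in TLSMGC 33.2% ± 4.23 and in TLSMGCL 38.4% ± 3.46. The linear ratio of Sox3 to Sox2 was 1.93, 1.72 and 1.65 in the Gastruloid libraries and 0.904, 0.952 and 0.899 in the TLSMG libraries. In no library outside Gastruloid did the ratio reach 1, the 96h libraries included (0.578 to 0.631). These ratios were described and not tested.

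Sox1 was the least abundant member throughout. Its share was 2.52% ± 0.782 at 96h, 8.99% ± 0.988 in Gastruloid, 10.3% ± 0.654 in TLSMG, 4.77% ± 0.847 in TLSMGC and 3.62% ± 0.430 in TLSMGCL. The Sox1 share in Gastruloid (7.98% to 9.96%) and TLSMG (9.56% to 10.9%) overlapped, and both lay above the other groups. A ratio within a library is free of the scaling between libraries, but not of GC content, in which the members differ.

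**Figure D3:**
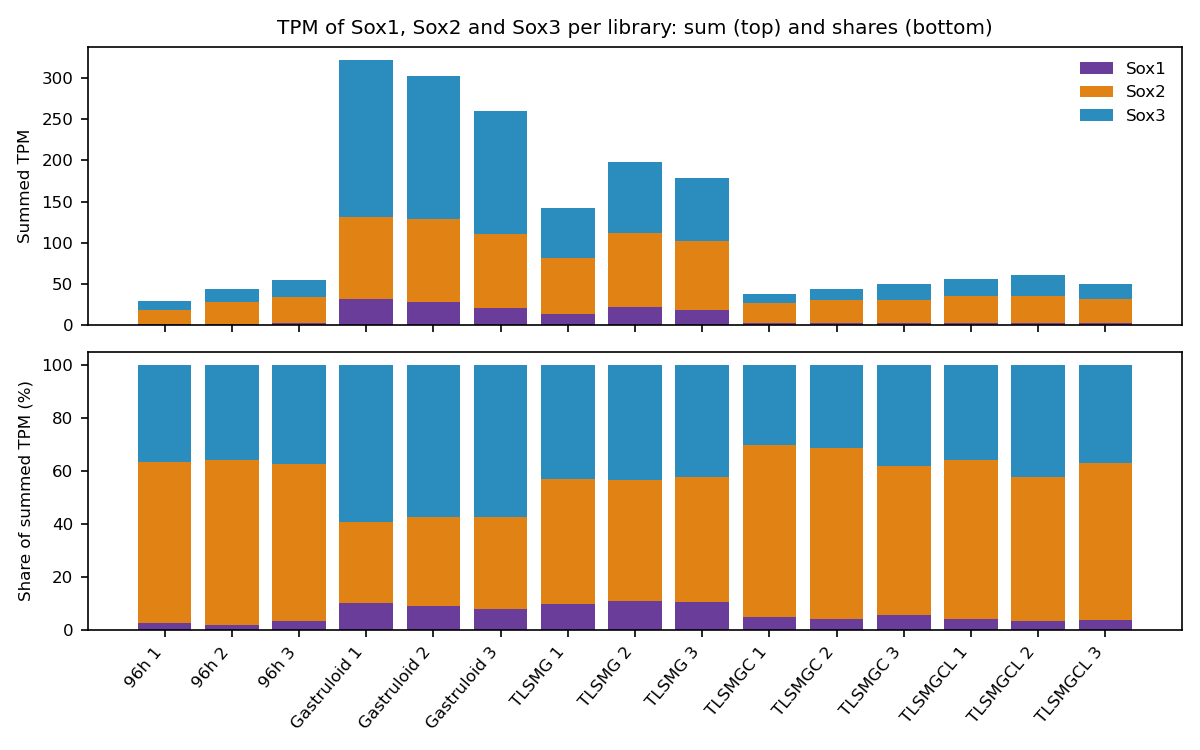
Summed TPM of Sox1, Sox2 and Sox3 (upper y axis) and each gene's share of that sum in percent (lower y axis) in each of the 15 libraries (x axis, group and replicate). Sox3 is the largest share in the 3 Gastruloid libraries (57.2% to 59.3%), and Sox2 in all other libraries.

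T, the mesoderm and axial progenitor factor that carries the second reporter, had a level opposite to that of Sox2 in most groups. Its TPM was 76.3, 120 and 134 at 96h, 12.3, 19.5 and 20.6 in Gastruloid, and 20.3, 16.7 and 19.4 in TLSMG. In TLSMGC it was 42.4, 42.1 and 48.3, and in TLSMGCL 32.3, 34.4 and 34.2. T fell from 96h to Gastruloid by -2.58 (adjusted p 2.19e-07) and rose with CHIR in Matrigel by 1.19 (adjusted p 0.000321) on the log2 scale, as Sox2 did the reverse.

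The linear ratio of Sox2 to T was 0.233 ± 0.00567 at 96h, 5.87 ± 1.91 in Gastruloid, 4.35 ± 1.04 in TLSMG, 0.610 ± 0.0564 in TLSMGC and 0.951 ± 0.0911 in TLSMGCL. Within the 96h group both genes were lowest in replicate 1 and highest in replicate 3, and the ratio stayed between 0.229 and 0.239. Every TLSMGCL library (0.853 to 1.03) had a higher ratio than every TLSMGC library (0.575 to 0.675), although neither Sox2 nor T passed the test between these groups (T -0.38, adjusted p 0.44). Bulk values do not tell whether the same cells held both transcripts.

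**Figure D4:**
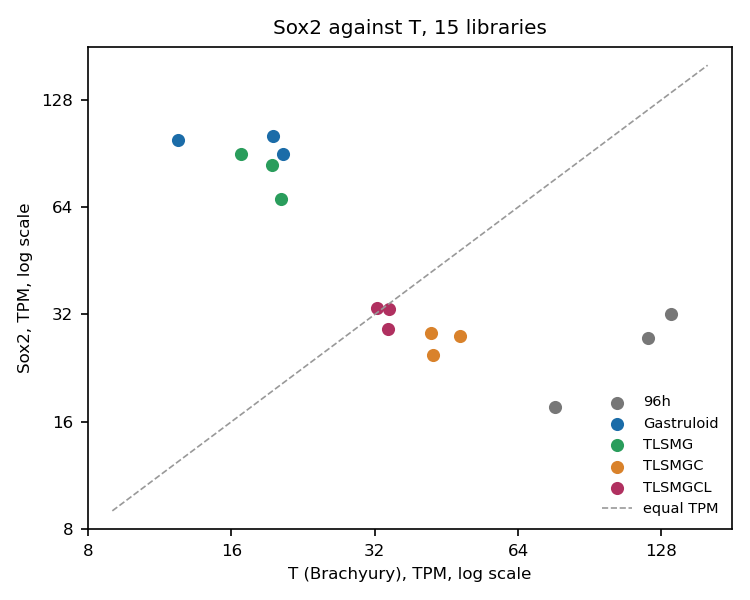
TPM of Sox2 (y axis, log scale) against TPM of T (x axis, log scale) in the 15 libraries, coloured by group, with a dashed line of equal TPM. Gastruloid and TLSMG lie far above the line, the 96h libraries below it, and the TLSMGCL libraries along it (ratios 0.853 to 1.03).

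The annotated genes that overlap a member all lie on its own strand. Sox2ot (chr3:34104270-34682619), a long non-coding transcript, contains Sox2 in an intron, and Sox1ot (chr8:12385771-12436768) contains Sox1 in the same way. Neither has an exon that overlaps the member's exon. The microRNA gene Gm25239 lies within the exon of Sox1 and had at most 0.225 TPM.

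Both overlapping transcripts were far below their partners. Sox2ot had 1.79, 2.16 and 0.577 TPM in Gastruloid and 0.679, 0.471 and 0.828 in TLSMG, and at most 0.259 TPM in the other groups. The coverage listed for Sox2ot was 0.016 to 0.146 in Gastruloid and 0.011 to 0.046 in TLSMG. In Gastruloid replicate 1 it was 0.095 at an FPKM of 0.934, where Sox1ot had 3.68 at an FPKM of 1.12. The coverage of Sox2ot is therefore not on the scale of Sox1ot and cannot be read as its depth. Sox1ot had 2.15, 1.40 and 1.03 TPM in Gastruloid and 0.247, 0.654 and 0.436 in TLSMG, was listed at 0 in all 96h libraries and reached at most 0.026 TPM with CHIR. The mean read depth of Sox1ot was 2.39 to 3.68 in Gastruloid and 0.515 to 1.33 in TLSMG. The part of unspliced Sox1ot and Sox2ot RNA in the Sox1 and Sox2 values was not tested.

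The other Sox genes were examined as a list of 17, of which 13 passed the level filter and Sry was listed at 0 in every library. From 96h to Gastruloid 7 of the 13 rose and 0 fell, with a median log2 difference of 0.59, against a median of 0.00 for all genes, of which 20.8% were called higher. The closest to the members was Sox21, a SoxB2 gene whose protein represses targets that SoxB1 proteins activate. The TPM of Sox21 was 0.565 to 1.04 at 96h, rose to between 24.3 and 37.8 in Gastruloid, and was 8.80 to 16.1 in TLSMG. With CHIR it was 0.334 to 1.34 (TLSMGC) and 0.924 to 1.21 (TLSMGCL).

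Like Sox3, Sox21 passed in each of these comparisons. It rose by 4.10 from 96h to Gastruloid (adjusted p 1.01e-08), was lower in TLSMG than in Gastruloid by -1.22 (adjusted p 0.00129), and fell with CHIR by -2.87 (adjusted p 6.38e-07), the farthest of the called Sox genes on the list. With CHIR 11 of the 13 were called lower and 0 higher (9 lower with either other scaling), with a median of -1.03, where 30.5% of all genes were called lower (18.8% after median-of-ratios scaling). In TLSMG against Gastruloid 5 were called higher (Sox4, Sox7, Sox8, Sox11 and Sox18) and 2 lower (Sox15 and Sox21). That split was 3 and 3 with FPKM or median-of-ratios scaling. Of all genes 31.5% were called higher and 7.87% lower there, or 19.3% and 18.2% after median-of-ratios scaling. Sox18, an endothelial factor, went from 5.15 ± 0.850 to 26.7 ± 2.80 TPM in that comparison, opposite to Sox3.

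Sox12, a SoxC gene and the most abundant of the list, had 57.1 ± 4.12 TPM at 96h, 122 ± 6.28 in Gastruloid and 123 ± 9.69 in TLSMG. In TLSMGC it was at 89.3 ± 2.38 TPM and in TLSMGCL at 62.1 ± 38.5 TPM, a spread set by values from 18.6 to 91.8. Sox12 therefore stayed above the summed SoxB1 level of both groups with CHIR on average, a comparison of levels on the length-corrected TPM scale.

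**Figure D5:**
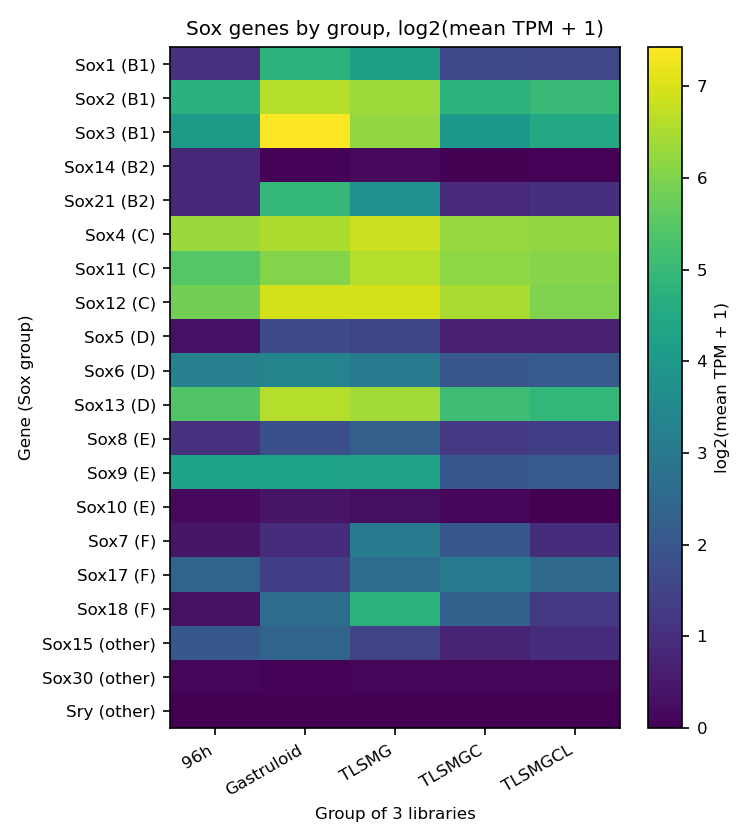
Level of 20 Sox genes (y axis, Sox group in brackets) in the 5 groups (x axis) as log2(mean TPM + 1) over 3 libraries, from dark (0) to yellow (highest). Sox1, Sox2, Sox3 and Sox21 are brightest in Gastruloid, whereas Sox18 is brightest in TLSMG and Sry is at 0 throughout.

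POU factors bind DNA together with SoxB1 proteins, and 4 of the 6 listed passed the level filter. Pou5f1 (Oct4), the partner of Sox2 in pluripotent cells, had 116 ± 26.7 TPM at 96h, 57.8 ± 11.3 in Gastruloid, 26.5 ± 2.71 in TLSMG, 10.1 ± 4.93 in TLSMGC and 13.9 ± 1.28 in TLSMGCL. It fell from 96h to Gastruloid by -0.98 (adjusted p 0.00643), while Sox2 rose, and fell with CHIR by -1.39 (adjusted p 0.00064), along with Sox2. From 96h to Gastruloid 1 POU gene rose (Pou3f2, a neural POU factor) and 1 fell (Pou5f1), beside 20.8% and 20.5% of all genes. With CHIR all 4 were called lower (3 with median-of-ratios scaling), beside 30.5% of all genes (18.8% with that scaling).

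Neural progenitor genes moved in both directions. Of 12 tested, 8 rose and 2 fell (Fabp7 and Notch1) from 96h to Gastruloid, 4 were lower and 0 higher in TLSMG than in Gastruloid, and 8 were lower and 1 higher (Notch1) with CHIR. With the other scalings 6 were lower in TLSMG and 5 or 7 lower with CHIR. The shares of all genes were 20.8% higher and 20.5% lower from 96h to Gastruloid. They were 7.87% lower in TLSMG than in Gastruloid (18.2% after median-of-ratios scaling) and 30.5% lower with CHIR (18.8%). The list's medians were 0.72, -0.33 and -0.90. Pax6, a factor of the neural tube, had 0.666 ± 0.176 TPM at 96h, 23.5 ± 15.7 in Gastruloid, 10.5 ± 4.88 in TLSMG, 0.139 ± 0.122 in TLSMGC and 0.242 ± 0.177 in TLSMGCL. It was lower by -1.01 in TLSMG than in Gastruloid (adjusted p 0.0412) and by -3.24 with CHIR (adjusted p 1.38e-05).

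Dbx1, a factor of intermediate neural progenitors, was lower in TLSMG than in Gastruloid by -2.34 (adjusted p 0.00647), with Gastruloid libraries from 4.95 to 47.9 TPM and TLSMG libraries from 0.609 to 2.61 TPM. Msi1, an RNA-binding protein of neural progenitors and the most abundant gene of the list, stayed between 73.6 and 102 TPM in the group means. Of 11 genes of neuron differentiation 4 passed the level filter. From 96h to Gastruloid 1 of these 4 rose (Elavl4, an RNA-binding protein of neurons) and 2 fell (Isl1 and Stmn2). In TLSMG against Gastruloid 1 was higher (Isl1) and 0 lower, or 1 and 2 with either other scaling. With CHIR 3 were lower (Elavl4, Isl1 and Stmn2) and 0 higher. Of all genes 20.8% were called higher and 20.5% lower from 96h to Gastruloid. The shares were 31.5% and 7.87% in TLSMG against Gastruloid (19.3% and 18.2% after median-of-ratios scaling). With CHIR 30.5% were called lower (18.8% with that scaling).

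Isl1, a LIM homeobox factor of motor neurons and other cell types, had 3.56 ± 0.783 TPM at 96h, 0.709 ± 0.214 in Gastruloid, 2.4 ± 0.470 in TLSMG, 0.537 ± 0.472 in TLSMGC and 0.285 ± 0.152 in TLSMGCL. It was higher in TLSMG than in Gastruloid by 0.99 (adjusted p 0.00223), where Sox3 was lower, and fell with CHIR by -1.18 (adjusted p 0.000487). Tubb3, a tubulin of neurons, was between 13.4 and 19.2 TPM in the group means. The proneural gene Neurog1 had group means of at most 1.46 TPM, the groups with high SoxB1 levels included. This highest mean was that of TLSMG, where the libraries ran from 0.200 to 3.71 TPM.

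Genes of the posterior end mostly went the other way from 96h to Gastruloid, and in part with CHIR. Of 10 axial progenitor genes 9 fell (8 with FPKM) and 1 rose (Cdx4) from 96h to Gastruloid, where the members rose. Of 7 presomitic mesoderm genes all fell, beside 20.5% of all genes (16.6% with FPKM). In TLSMG against Gastruloid 1 axial progenitor gene was called higher and 1 lower. There 5 presomitic genes were called higher (1 with FPKM), beside 31.5% of all genes (19% with FPKM). With CHIR 4 axial progenitor genes rose (T, Cdx1, Fgf17 and Wnt3a) and 2 fell (Cyp26a1 and Wnt8a), or 1 with either other scaling. Of the presomitic genes 5 rose and 0 fell. Of all genes 10.4% were called higher with CHIR, or 18.3% after median-of-ratios scaling. Cdx1, a posterior homeobox factor, rose with CHIR from 3.32 ± 0.555 to 152 ± 33.8 TPM. Dll1, a Notch ligand and the most abundant of the presomitic genes, had 484 ± 24.2 TPM at 96h, 38.7 ± 5.88 in Gastruloid, 44.1 ± 2.4 in TLSMG and 90.7 ± 10.8 in TLSMGC. Msgn1, a factor of presomitic mesoderm, rose with CHIR from 1.19 ± 0.575 to 36.6 ± 8.15 TPM (adjusted p 1.57e-08). Ripply2, a regulator of somite boundaries, had 5.56 ± 2.19 TPM in TLSMG and 2.68 ± 1.82 in Gastruloid (adjusted p 0.0407).

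Genes of other cell types that can hold Sox2 moved with it in part. Of 11 pluripotency genes 2 rose (Dppa5a and Fbxo15) and 3 fell (Fgf4, Klf4 and Tfcp2l1) from 96h to Gastruloid. Fgf4 went from 26.1 ± 5.91 to 3.30 ± 0.881 TPM and Klf4 from 6.11 ± 1.32 to 1.72 ± 0.533 TPM. Of the 11 genes 7 were lower in TLSMG than in Gastruloid. With CHIR 8 were lower (7 with either other scaling) and 0 higher. With FPKM 4 rose to Gastruloid, and with either other scaling 9 were lower in TLSMG. Of all genes 20.8% were called higher and 20.5% lower from 96h to Gastruloid. In TLSMG 7.87% were called lower than in Gastruloid (18.2% after median-of-ratios scaling), and with CHIR 30.5% (18.8%). Their summed TPM per library ran from 127 to 219 at 96h and from 218 to 358 in Gastruloid. It was 107 to 139 in TLSMG, 36.7 to 65.7 with CHIR and 60.9 to 79.6 with CHIR and LDN. Dppa5a, the most abundant of them, had 74.8 ± 24.6 TPM at 96h, 199 ± 49.0 in Gastruloid, 76.2 ± 11.1 in TLSMG and 26.6 ± 10.4 in TLSMGC. The sum depends heavily on this gene. The list's median log2 difference from 96h to Gastruloid was only 0.11. Utf1, a chromatin protein of pluripotent cells, fell with CHIR by -1.73, from 11.8 ± 1.79 to 2.96 ± 1.11 TPM (adjusted p 0.000734). The part of such cells in the Sox2 level was not tested.

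From 96h to Gastruloid, where Sox2 rose, 2 of 7 germ cell genes tested rose and 0 fell, with a median log2 difference of 0.28. Of 8 gut endoderm genes 3 rose and 1 fell (Cdh1) in that step, with a median of 0.09. Of all genes 20.8% were called higher and 20.5% lower in it. With CHIR 6 of the 7 germ cell genes were lower, where 30.5% of all genes were. Their summed TPM went from 84.8 to 94.7 in TLSMG down to 27.6 to 32.1 in TLSMGC. Of 8 gut endoderm genes 6 were lower with CHIR (5 with either other scaling), from a summed 89.0 to 129 TPM in TLSMG to 39.9 to 68.2 in TLSMGC. Ifitm3, a membrane protein of germ cells, fell from 44.9 ± 1.81 to 13.0 ± 0.993 TPM, and Foxa1, an endoderm factor, from 5.64 ± 1.10 to 1.10 ± 0.555 TPM. Prdm1, a factor of germ cell specification, fell by -2.20 from 6.85 ± 1.55 to 0.696 ± 0.244 TPM (adjusted p 1.39e-05). Krt18, an epithelial keratin and the most abundant of the gut genes, fell from 28.6 ± 2.94 to 13.1 ± 2.78 TPM (adjusted p 0.000865).

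In TLSMG against Gastruloid 1 of 7 germ cell genes was called higher (Kit) and 2 lower (Ifitm3 and Nanos3). Of 8 gut endoderm genes 0 were called higher and 1 lower (Krt8). Of all genes 7.87% were called lower there (18.2% after median-of-ratios scaling). Kit had 21.5 ± 0.751 TPM in TLSMG against 12.9 ± 0.931 in Gastruloid (adjusted p 0.00018). Nanos3, an RNA-binding protein of germ cells, had 0.866 ± 0.435 against 2.14 ± 0.677 TPM (adjusted p 0.0218). Krt8, the partner keratin of Krt18, had 20.5 ± 4.11 against 29.2 ± 2.19 TPM (adjusted p 0.0347). None of these defining genes was listed at 0 in all libraries. Of 7 neural crest genes 2 passed the level filter, and both were called higher in TLSMG than in Gastruloid. Of all genes 31.5% were called higher there (19.3% after median-of-ratios scaling). The 2 genes were Ets1, at 79.6 ± 3.65 against 40.8 ± 4.13 TPM, and Snai2, at 15.8 to 18.2 against 2.90 to 5.94 TPM. Both also rose from 96h to Gastruloid, as the members did, beside 20.8% of all genes. With CHIR both were called lower, Ets1 by -2.30 (adjusted p 7.47e-08) and Snai2 by -0.86 (adjusted p 0.00439). Beside them 30.5% of all genes were called lower (18.8% after median-of-ratios scaling). The part of these cells in the SoxB1 levels was not tested either. With CHIR and LDN together, compared with TLSMG, 35.6% of all genes were called lower and 9.31% higher (20% and 19.1% after median-of-ratios scaling). In that comparison 5 of 7 presomitic genes were called higher and 0 lower (6 and 0 after that scaling). Of 10 axial progenitor genes 3 were called higher and 2 lower (3 and 1). Of 4 neuron differentiation genes tested 0 were called higher and 3 lower (1 and 1), and both neural crest genes tested were called lower. Notch1 was the 1 neural progenitor gene called higher, by 1.11 (adjusted p 4.09e-05). There 11 of 13 other Sox genes (9 after that scaling), 4 of 4 POU genes (3), 8 of 12 neural progenitor genes (7), 6 of 11 pluripotency genes (3), 5 of 7 germ cell genes (4) and 6 of 8 gut endoderm genes (5) were called lower, beside all members.

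Across the 15 libraries the members resembled each other more than nearly all other genes, as Pearson's r of log2(TPM + 1), a description in which libraries share groups. The gene most like Sox2 was Sox1 (r = 0.981), and Sox3 ranked 3 of 14289 genes (r = 0.977). For Sox3, Sox2 ranked 3 and Sox1 ranked 8 (r = 0.970), and for Sox1, Sox2 ranked 7 and Sox3 ranked 24. Sox21 ranked 23 for Sox1, 25 for Sox2 and 11 for Sox3, while T had r of -0.85, -0.80 and -0.78 with Sox1, Sox2 and Sox3.

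The genes most like Sox1 were Nuak2 (r = 0.987), Crb2, Prss23, Rprm and Batf. Those most like Sox2, besides its relatives, were Syt7 (r = 0.980), Nuak2 and Abat. For Sox3 they were Syt11 (r = 0.982), Nuak2, Hap1 and Pax1 (r = 0.973). Nuak2, a kinase, was in the first 5 of all members, with mean TPM of 2.83 at 96h, 26.4 in Gastruloid, 16.3 in TLSMG, 3.71 in TLSMGC and 4.16 in TLSMGCL. Pax1, a factor known from sclerotome and not from neural cells, had 0.0362, 61.7, 17.0, 0.266 and 0.171 TPM in the same order, so genes known from different tissues were alike over these 5 groups.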

How the data were processed

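Gene expression was analysed in 15 bulk libraries of 5 groups. Per the submitters' processing notes, the tools were cutadapt 2.4, STAR 2.7.3a and StringTie 2.0, with build mm10; the annotation release is not given in the sources used here. The TPM, FPKM and coverage values (a signal, mean read depth) are those the authors deposited in 1 StringTie table per library. Of 54446 gene IDs, 53229 matched GENCODE M21 in version and position. Repeated lines of a gene ID were summed.

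Tests used limma 3.58.1 (R 4.3.3) on log2(TPM + 1), two-sided, for the 14290 genes whose TPM averaged 1 or more, in 1 fit of all groups with a mean trend, and Benjamini-Hochberg adjustment per comparison at 0.05. This scale understates changes at low TPM. The method was tested on simulated data in which 200 of 14290 genes were changed by 1 or 2 on the log2 scale in TLSMG. In TLSMG minus Gastruloid 89% and 99% of these were called, beside 6 unchanged genes. The simulated noise was independent and normal, without shifts of scaling or GC content, so false calls from such shifts were not covered. Without counts, no counting intervals were computed, and a listed 0 can be a failed estimate. Overlap between libraries was described for the members, and its share over all genes was not computed. Whether replicates were separate cultures is not stated beyond "biological". The p-values set a difference against a spread between replicates that was pooled over all 5 groups and moderated across genes.

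The members and lists were chosen with earlier results of these data known. Named genes are the members, overlapping genes, T, the 5 genes most alike each member and, per list, the most abundant gene and the largest called difference in TLSMG minus Gastruloid and TLSMGC minus TLSMG. Genes named beside a count of 5 or fewer, and Neurog1, were chosen after their values were seen. Alternatives were other pseudocounts, filters, scalings, FPKM, a replicate block, fits of the groups compared, no trend and each library left out; correction for GC content and length was added after seeing the data. The single-cell samples were not analysed here. Python 3.11.15, pandas 2.3.3 and matplotlib 3.10.9 were used for loading and plots.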

Additional observations from a re-analysis of the deposited data

How the results depend on the processing

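Of 855 recomputed member results, 818 kept their direction and their side of the threshold, 14 were no longer called, 17 became called and 6 changed sign. All 19 calls of members that involve Gastruloid or TLSMG held under every alternative run, among them Sox3 in TLSMG minus Gastruloid (-1.37 to -1.07). The calls at the threshold did not. Sox1 in TLSMGC minus 96h was not called without a filter (0.59, adjusted p 0.0951), with FPKM (0.42, 0.0806), in a fit of the 2 groups (0.59, 0.0806) or in 10 of 15 leave-one-out fits (all 15 ran from 0.43 to 0.81). Sox1 in TLSMGCL minus 96h was called with a pseudocount of 0.1 (0.91) or 0.5 (0.70), with the GC and length correction (0.73, also with the replicate block) and in 2 of 15 leave-one-out fits (all 15 ran from 0.43 to 0.77). Sox1 in TLSMG minus Gastruloid was called with FPKM (-0.69), median-of-ratios scaling (-0.72), the GC and length correction (-0.70) and in 4 of 15 leave-one-out fits (all 15 ran from -0.72 to -0.39). In TLSMGCL minus 96h, leave-one-out values ran from 0.10 to 0.51 for Sox2 and from 0.22 to 0.66 for Sox3, and each was called without 96h replicate 3; Sox3 was also called with the GC and length correction (0.67), with or without the replicate block. Signs changed only for differences that were not called: Sox2 in TLSMGC minus 96h without 96h replicate 1 (-0.14; range to 0.28), Sox3 in TLSMGC minus 96h without 96h replicate 3 (0.14), without TLSMGC replicate 1 (0.09) and with the GC and length correction, with or without the block (0.12; leave-one-out range -0.30 to 0.14), and Sox1 in TLSMGCL minus TLSMGC without TLSMGC replicate 3 (0.11; range -0.12 to 0.11). The causes were not tested.

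Over all genes, the 169 calls of TLSMGCL minus TLSMGC became 42 in a fit of the 2 groups, 56 without TLSMGC replicate 2, 70 without TLSMGCL replicate 1, 78 without TLSMGCL replicate 3 and 279 with the GC and length correction. The 5622 calls of TLSMG minus Gastruloid became 3281 with that correction and 2988 with the block as well. Same-numbered libraries of different groups did not deviate together (mean r = -0.02 over 30 pairs, from -0.18 to 0.10). With the replicate block, 32 of 33 member results kept their call, and Sox1 in TLSMGC minus 96h was not called (0.59, adjusted p 0.0603). Depth limits Sox1 most, which had a mean read depth of 1.55 to 5.91 in the groups where it was low.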
